A study of Mus musculus with 22 samples.

Results

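CpG dinucleotides read on both DNA strands were examined in embryonic mouse forebrains after an early alcohol exposure. A CpG entered when its cytosine on the forward (F) strand and the cytosine one base further on the reverse (R) strand were each covered by at least 20 reads in at least 5 control and at least 10 exposed embryos. On the 19 autosomes, 52337 CpGs met this rule, of 2809601 CpGs with any read. Methylation had been measured by rapid reduced representation bisulfite sequencing (rRRBS), in which MspI cuts genomic DNA at CCGG, short fragments are kept, and bisulfite turns unmethylated cytosines into bases read as T. The level of a strand is the percentage of its reads that kept a C. All 22 samples were wild type C57BL/6 forebrains of embryonic day 10.5 (E10.5), 1 embryo each and without visible defects. The 6 control (Ctrl) embryos came from females given saline. The 16 EtOH embryos came from females given 2 subcutaneous injections of ethanol, each of 2.5 g/kg, 2 h apart at E2.5. Ctrl embryos came from 3 litters and EtOH embryos from 6 litters, so littermates are among them and p-values measure the spread between these embryos. Methylation calls hold no expression, so the forebrain label was not checked against marker genes.

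CpG methylation is normally symmetric, because the dinucleotide reads CG on either strand. When DNA replicates, the new strand starts without methyl groups, and the maintenance enzyme DNMT1, guided by UHRF1 to the hemimethylated sites, copies the mark from the old strand. De novo enzymes of the DNMT3 family set new marks without such a template. In reads from bulk tissue the F and R strands come from different molecules. Hemimethylated CpGs of opposite orientation in different cells therefore cancel, and a strand difference here is a net difference over the forebrain.

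The sequences below belong to CpGs described in detail. The first pair have identical windows, the next 4 are single asymmetric CpGs or belong to asymmetric fragments in genes, and the last has the smallest p for a difference by exposure. Each is the F strand of GRCm38, 5′ to 3′, with the CpG in capitals.
chr1:30371301-30371330 (intergenic): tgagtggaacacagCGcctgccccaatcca
chr1:76312073-76312102 (intergenic): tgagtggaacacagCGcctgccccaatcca
chr13:119488421-119488450 (3110070M22Rik promoter): gggcggggcgccgtCGtccgcccgcctacc
chr12:99645613-99645642 (Gm19951 intron): cgggatgaaccgaaCGccgggttaaggcgc
chr13:44869635-44869664 (Jarid2 intron): cgttcggttcatccCGcagcgccagttctg
chr4:146067886-146067915 (Gm13034 exon): gtgtgctgcgggttCGggccccggccccgc
chr8:122335847-122335876 (Zfpm1 coding exon): ggcgccacaggcctCGgagatcctggccaa

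The CpGs read on both strands were mostly unmethylated sites in CpG-dense DNA. In Ctrl embryos, with both strands summed, 80.6% of them had a level under 5%, 13.3% had at least 80%, and 1825 (3.49%) lay between 20 and 80%. For comparison, 314283 other CpGs reached 20 reads on at least 1 strand in as many embryos, and 66.7% of these were under 5%. Both-strand CpGs lay on MspI fragments of median length 89 bp (quartiles 82 and 100 bp), against 106 bp (90 and 123 bp) for the others, and had a median of 22 against 16 CpGs within 100 bp. The CpG of the cut site itself (CCGG) made up 2.75% of them against 23.0%. Promoters, taken as 1000 bp before to 100 bp after a transcription start site, held 44.7% of them against 39.1%, and soft-masked repeats held 6.00% against 10.5%. These shares describe which CpGs the rule selects and were not tested.

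Depth differed between libraries. The median number of reads per strand over both-strand CpGs was 28 to 99 in Ctrl and 38 to 231 in EtOH embryos. Ctrl embryo 6, the shallowest library, had values at 9231 of the CpGs, whereas Ctrl embryos 1, 3, 4 and 5 had values at all of them, so most CpGs rest on 5 Ctrl embryos. A total of 694 CpGs had a value in all 22 embryos. CpGs that reached the minimum with 20 but not 25 reads per strand had an excess strand SD (defined below) of 9.15 points ± 2.84 (SD, n = 6) in Ctrl and 9.25 ± 1.59 (n = 16) in EtOH embryos at 20 to 80%, and CpGs just outside it, reached with 16 but not 20 reads, had 10.5 ± 1.85 and 10.6 ± 1.48 points.

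Averaged over CpGs, the F and R strands had close levels in every embryo. At 20 to 80%, where strands have most room to differ, the mean level was 51.7% ± 1.05 on F and 52.0% ± 0.905 on R in Ctrl embryos (SD, n = 6), and 48.1% ± 4.97 on F and 48.1% ± 5.1 on R in EtOH embryos (n = 16). The mean strand difference, F minus R, was -0.265 points ± 0.50 in Ctrl and -0.0845 ± 0.355 in EtOH embryos, and its range was -0.943 to 0.628 points over all 22. The groups did not differ in it beyond the spread between embryos (two-sided exact permutation test over 74613 splits of the embryos, p = 0.354, adjusted p = 0.682 over 10 such measures). EtOH minus Ctrl embryos in level was -3.69 points on F and -3.87 points on R, and passed the test on neither (exact permutation p = 0.0912 and 0.0844, adjusted p = 0.304 for both). On each strand 10 of the 16 EtOH embryos lay below every Ctrl embryo and 3 lay above, and the lowest were EtOH embryos 4, 5 and 6 at 39.1 to 42% on F. Without these 3 embryos EtOH minus Ctrl was -1.94 points on F and -2.09 on R. The residual level, the mean over 36132 CpGs whose median level was under 1%, was 0.600 to 1.47% in the 6 Ctrl libraries, 0.731 to 1.29% in 7 EtOH libraries, 0.218 to 0.30% in 6 (EtOH embryos 1, 2, 3, 9, 12 and 14) and 2.26 to 2.42% in 3 (EtOH embryos 4, 5 and 6). Thus 9 of the 16 EtOH libraries lay outside the Ctrl range, on either side of it. The Ctrl libraries were themselves split, at 0.600 to 0.647% in Ctrl embryos 3, 4, 5 and 6 and 1.42 to 1.47% in Ctrl embryos 1 and 2. The 7 EtOH libraries inside the Ctrl range lay between these, so none was matched to a Ctrl library. Within the 13 libraries inside the Ctrl range EtOH minus Ctrl in level was -0.0513 on F and -0.26 on R (exact permutation p = 0.960 and 0.821).

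F and R have no biological direction, so strands were also oriented by the fragment. The strand whose 5′ end lay at the nearer cut was 0.697 points ± 0.569 higher than the other strand in Ctrl and 0.619 ± 0.527 higher in EtOH embryos (exact permutation p = 0.764, adjusted p = 0.821). At the CpG of CCGG, 1 strand starts a fragment while the other ends one, where the last bases are filled in during library making. Over 170 such CpGs with a single suitable fragment, the starting strand minus the ending strand was -0.556 points ± 1.20 in 5 Ctrl embryos and -0.156 ± 3.35 in EtOH embryos (exact permutation test over 20349 splits, p = 0.821, adjusted p = 0.821). EtOH embryos 1 and 12 stood at 7.67 and 6.48 points, and EtOH embryo 5 at -6.13.

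Single CpGs differed between strands by more than read counting gives in every embryo. The counting part was computed for each CpG and embryo from the reads of each strand and the methylated reads of both, as the mean absolute difference expected when the methylated reads fall on the strands at random. At 20 to 80% the mean absolute difference was 9.50 points ± 1.13 in Ctrl embryos, of which counting gave 6.90 ± 1.29, leaving an excess of 2.60 ± 1.01. In EtOH embryos it was 8.87 ± 1.15, of which counting gave 5.74 ± 0.892, leaving 3.13 ± 1.01. The excess was above 0 in all 22 embryos (1.54 to 4.93 points). PCR copies cannot be told apart here, so the counting part is a lower bound. An excess above 0 therefore need not be a difference between strands. Expressed as a standard deviation after the counting variance was removed (excess strand SD), the strand difference was 9.20 points ± 1.49 in Ctrl and 9.51 ± 1.23 in EtOH embryos, with ranges of 7.88 to 11.7 and 7.74 to 11.6 (exact permutation p = 0.615, adjusted p = 0.821).

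The excess was largest at intermediate levels in both groups. In Ctrl embryos it was 0.193 points ± 0.127 under 5%, 1.33 ± 0.526 at 5 to 20%, 2.82 ± 1.05 at 20 to 40%, 3.32 ± 1.13 at 40 to 60%, 1.93 ± 0.954 at 60 to 80%, 1.14 ± 0.331 at 80 to 95% and 0.570 ± 0.151 at 95% and over. In EtOH embryos the means ran 0.266, 1.77, 2.95, 3.88, 2.77, 1.61 and 1.06 points over the same levels. Over all CpGs together it was 0.410 points ± 0.169 in Ctrl and 0.523 ± 0.311 in EtOH embryos (exact permutation p = 0.409, adjusted p = 0.682). For a given strand difference, the absolute excess is smaller where counting error is larger, so it depends on depth. The median embryo had 67 reads per strand in Ctrl and 119.5 in EtOH. In Ctrl embryos the mean excess strand SD ran 1.09, 4.64, 8.92, 11.2, 7.68, 4.54 and 2.42 points over the same levels. EtOH embryos had 1.08, 5.685, 8.585, 11.3, 8.76, 5.52 and 3.855, and these were not tested by level.

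**Figure D1:**
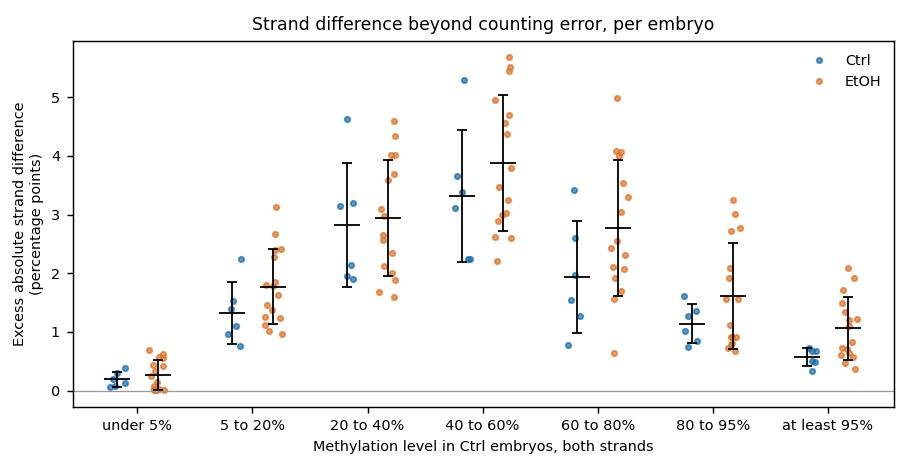
Absolute strand difference beyond counting error in percentage points (y axis) by methylation level in Ctrl embryos (x axis). Each point is 1 embryo (6 Ctrl, 16 EtOH), and bars give the mean and SD; the excess is highest at 40 to 60%, with means of 3.32 points in Ctrl and 3.88 in EtOH embryos, and the groups overlap at every level.

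No level class separated EtOH from Ctrl embryos after adjustment over the 7 classes. The lowest p was at 95% and over, where Ctrl embryos ranged from 0.331 to 0.733 points and EtOH embryos from 0.372 to 2.09 with a median of 0.964 (exact permutation p = 0.0374, adjusted p = 0.262). The classes were set on the levels of the Ctrl embryos, 1 of the groups compared. In this class Ctrl embryos had mean levels of 96.15% on F and 96.14% on R, and EtOH embryos 95.43% and 95.46%. The excess strand SD of this class was 2.42 points ± 0.232 in Ctrl embryos (range 1.97 to 2.58). In EtOH embryos it was 3.855 ± 1.15 (range 2.185 to 5.99), and it was not tested in this class. The absolute excess of 9 of 16 EtOH embryos lay above that of every Ctrl embryo. The highest were EtOH embryos 4, 8, 5 and 6, at 2.09, 1.92, 1.72 and 1.5 points. Without EtOH embryos 4, 5 and 6 EtOH minus Ctrl was 0.331 points in place of 0.494 (exact permutation p = 0.0880), and within the 13 libraries it was 0.533 (exact permutation p = 0.0274, adjusted p = 0.141). Over the CpGs with a value in all 22 embryos it was -0.0116 (exact permutation p = 0.962). EtOH embryos 4, 5 and 6, the libraries with the highest residual level, had 44 to 47 reads per strand at the 95% class. The residual level, which includes cytosines that bisulfite failed to convert, was nearly equal on the strands, with a median of 0.618% on F and 0.646% on R in Ctrl and 0.839% and 0.855% in EtOH embryos. Its part in the strand excess was not tested.

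At 20 to 80%, Fisher's exact test on the reads of the strands gave p under 0.01 at 3.98 to 11.1 percentage points more CpGs than counting gives in Ctrl embryos (6.50 ± 2.81) and at 2.63 to 17 points more in EtOH embryos (9.28 ± 3.82). The groups overlapped (exact permutation p = 0.121, adjusted p = 0.304). Ctrl embryo 2, the highest of its group, had reads that differed 2.35-fold between strands at the median CpG, against 1.23- to 1.61-fold in the other Ctrl embryos. EtOH embryo 8, the highest of all, had 1.84-fold, while EtOH embryo 3, with the most unequal strands among EtOH embryos at 1.86-fold, had 9.88 points. The part of unequal strand reads in these values was not tested.

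Strand differences recurred from embryo to embryo at the same CpG. The shared strand SD, from products of the strand differences of 2 embryos at the same CpG, was 7.94 points ± 1.40 for Ctrl embryos set against the other Ctrl embryos and 6.65 ± 0.897 for EtOH embryos set against Ctrl embryos (exact permutation p = 0.0207, adjusted p = 0.207). The Ctrl embryos stayed the reference in every split, and Ctrl values share pairs with one another while EtOH values do not. This p therefore does not measure an effect of exposure, and EtOH embryos were not set against each other. Of the 16 EtOH embryos, 7 lay below every Ctrl embryo, and EtOH embryos 4, 5 and 6 were lowest at 4.80 to 5.28 points. Ctrl embryos 6 and 2 were highest at 9.78 and 9.71 points, and EtOH minus Ctrl, -1.29 points in all, was -0.537 without the former and -0.383 without the latter (exact permutation p = 0.203 and 0.273). Ctrl embryo 6 had values at 408 of the 1825 CpGs at 20 to 80%, and Ctrl embryo 2 at 1467. Few CpGs had values in both, and that pair weighs as much as any other pair in both of these high values. EtOH minus Ctrl in the shared strand SD turned to 1.01 points with at least 40 reads and to 4.07 with 20 to 40 reads. The excess strand SD was larger where the sequence was not unique. Over 167 CpGs at 20 to 80% whose 30-base window occurred more than once among the CpGs of the reference chromosomes it was 17.5 points ± 1.38 in Ctrl and 16.5 ± 1.28 in EtOH embryos, against 7.63 ± 2.06 and 8.42 ± 1.67 over 1658 CpGs whose window occurred once. Among the latter CpGs alone the shared strand SD of EtOH minus Ctrl embryos was -0.0672 points, with a p of 0.841 by the same exact permutation test. Intergenic CpGs had 11.7 points ± 1.61 in Ctrl embryos, introns 9.40 ± 1.87, coding exons 6.72 ± 2.28 and promoters 6.26 ± 6.25. By distance from the nearest cut the Ctrl means were close, with 8.54 points at 1 to 19 bp, 8.77 at 20 to 39 bp and 9.13 at 40 bp or more.

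Individual CpGs were then tested for a mean strand difference with embryos as replicates, with limma's moderated test at 7791 CpGs of mean level 5 to 95%. The difference tested is the average of the Ctrl mean and the EtOH mean, each group weighing the same, and is the one given with an SE below. At 88.4% of them this difference was under 5 points, and its median size was 1.83 points. A total of 183 (2.35%) passed an adjusted p of 0.05 with at least 10 points. Of these, 71 (0.911% of the tested) were higher on F and 112 (1.44%) higher on R. At 69 of the called CpGs the same strand was higher in every embryo with a value. The difference reached 20 points at 57 called CpGs and 50 points at 6. A strand with at least 80% facing one with at most 20%, on the mean over embryos, occurred at 1 CpG. In single embryos such opposite strands were found at 0 to 4 of the 9231 to 52337 CpGs with a value.

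**Figure D2:**
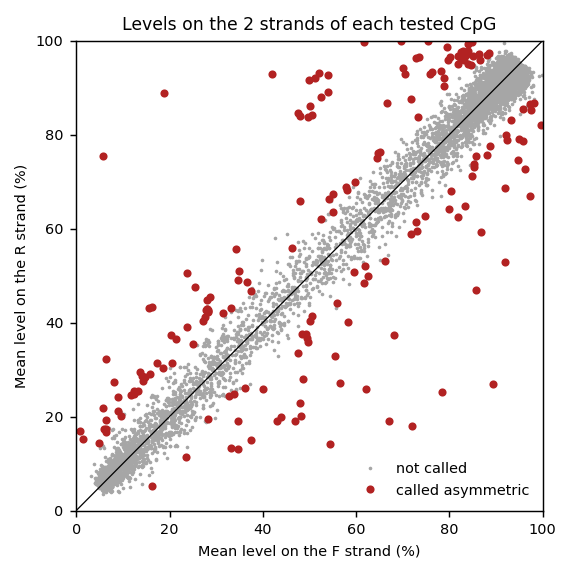
Mean methylation level on the R strand (y axis, %) against the F strand (x axis, %) for the 7791 tested CpGs, averaged over embryos. The line marks equal strands; 183 CpGs called asymmetric (red) stand off it, 71 with F higher and 112 with R higher, while at 88.4% of all the tested difference is under 5 points.

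The called CpGs lay more often in some sequence classes than the tested ones. Called were 7.07% of CCGG CpGs and 2.09% of the rest, 4.35% of CpGs whose 30-base window recurs in the genome and 1.95% of those whose window occurs once. By place, 3.92% of intergenic CpGs, 2.78% of promoter CpGs, 1.51% of intronic CpGs and 1.22% of coding-exon CpGs were called. Called shares were 7.84% at a control level of 40 to 60% and 1.22% at 80 to 95%. Reads of the strands differed 1.81-fold at the median called CpG and 1.45-fold at the median tested one. These shares are descriptions, since CpGs of one fragment share reads. Of the 57 calls of at least 20 points, 34 had a recurring window, 16 were soft-masked and 13 were CCGG CpGs. Among all tested CpGs these classes made up 16.5%, 18.7% and 5.26%.

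Calls came as runs along a fragment and as single CpGs on fragments with no other call. The 183 calls lay on 111 MspI fragments. On 23 of them 2 or more CpGs were called, 95 in all, and in each of the 23 the same strand was higher at every called CpG. On 64 other fragments with 2 or more CpGs tested, exactly 1 was called.

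Among named CpGs whose window occurs once, the largest difference lay in the promoter of 3110070M22Rik (chr13:119488435, 38 bp from the Tmem267 start site). Its window is printed above, and its median reads were 158 on F and 706 on R. The F strand carried 100, 77.9, 82.1, 82.1 and 80.7% in Ctrl embryos 1 to 5, and the R strand 18.8, 26.0, 27.0, 27.3 and 23.4%. In EtOH embryos F ran from 65.4 to 98.1% and R from 15.9 to 32%, so the strands were apart in all 21 embryos with a value, whereas the exposure groups overlapped on each strand. The difference was 55.6 points (SE 2.08, limma adjusted p = 2.0e-20), or 53.3 as a plain mean over the 21 embryos. On the latter scale the other 17 both-strand CpGs of the same 74-bp fragment had differences of -3.40 to 4.61 points, with mean levels of 81.2 to 92.2% on F and 83.3 to 94.2% on R, including the CpGs 3 bp before and 4 bp after it. A C changed to T in the DNA of 1 strand is read as unmethylated, and for any CpG here the calls cannot tell these apart.

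A second single CpG lay in an exon of Gm13034 (chr4:146067900), a predicted gene. Its R strand was at 100% in all 5 Ctrl embryos with a value and at 97.6 to 100% in 10 EtOH embryos. Its F strand was at 52.2 to 71.8% in Ctrl and 46.0 to 75.6% in EtOH embryos. The mean difference was -38.2 points (SE 2.19, limma adjusted p = 1.9e-13), and none of the other 11 both-strand CpGs of the fragment was called. Those had lower mean levels, of 11.1 to 37.3% on F and 9.76 to 43.2% on R.

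On fragments placed in introns of Gm19951 and Jarid2 every tested CpG was called asymmetric. Jarid2 encodes a partner of the Polycomb repressive complex PRC2. All 5 tested CpGs of the Gm19951 fragment (chr12:99645561-99645627) were called, with 47.6 to 50.7% on F and 83.7 to 86.0% on R. All 4 of the Jarid2 fragment (chr13:44869635-44869654) were called, with 50 to 54% on F and 91.7 to 93.2% on R. The R strand was higher in every embryo with a value at both. At the named Jarid2 CpG the F strand was at 44.4 to 83.9% in Ctrl and 20.7 to 78.4% in EtOH embryos, and the R strand at 86.2 to 96% and 86 to 100%. Within 100 bp of these CpGs the Gm19951 and Jarid2 loci share a run of 36 identical bases on opposite strands of the reference, against a median of 8 bases over all 105 pairs of the 15 CpGs named here for asymmetry or exposure. The window of the named Gm19951 CpG occurs 4 times among CpGs of the reference chromosomes, and that of the named Jarid2 CpG 3 times. Unplaced scaffolds and copies missing from the reference were not counted, so these numbers are lower bounds. Where loci share sequence, reads may be placed at either, so these reads need not come from the 2 introns.

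**Figure D3:**
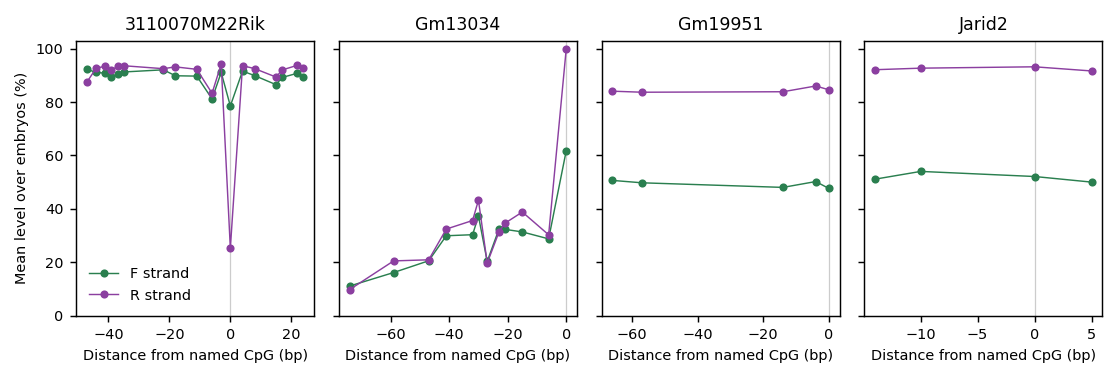
Mean methylation level over embryos (y axis, %) on the F and R strands of both-strand CpGs against distance from the named CpG (x axis, bp). At 3110070M22Rik and Gm13034 a single CpG stands apart from its neighbours, none of which was called, whereas at Gm19951 and Jarid2 the R strand is higher at every CpG of the fragment.

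Among the named asymmetric CpGs, the 2 largest differences lay in repeats. At chr1:114229992 the F strand was at 2.08 to 20% in 5 Ctrl and 0 to 11.4% in 11 EtOH embryos, and the R strand at 76.2 to 95% and 51.2 to 94%, a mean difference of -72.4 points (SE 3.21, limma adjusted p = 2.4e-16). At chr1:30371315 F was at 8.45 to 25.7% in Ctrl and 9.33 to 56.1% in EtOH embryos, where embryos 4, 5 and 6 were highest at 47.7, 50 and 56.1%. Its R strand was at 81.8 to 90.6% and 81.2 to 100%, a mean difference of -70.9 points (SE 2.97). At chr1:76312087 the mean difference was -51.3 points (SE 1.58), with F at 37.8 to 50.4% in Ctrl and 32.1 to 61.1% in EtOH embryos. The CpGs at chr1:30371315 and chr1:76312087 have the same 30-base window, as printed above, and share 44 bases around it. That window occurs 2309 times among CpGs of the reference chromosomes, and the window of chr1:114229992 occurs 1904 times.

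At the remaining named CpGs F was higher in every embryo with a value. A CCGG CpG at chr8:20122802 had 92.9 to 100% on F and 33.6 to 49.4% on R in Ctrl embryos, and 69.2 to 96.8% and 10.9 to 38.8% in EtOH embryos (mean difference 60.4 points, SE 2.44). It borders an intergenic 100-bp fragment (from chr8:20122702) on which all 13 tested CpGs were called, each higher on F, by 10.4 to 46.2 points. In an intron of Smyd4, which encodes a SET and MYND domain protein, a soft-masked CpG (chr11:75358209) differed by 41.3 points (SE 3.94). In an intron of Slc35f1, a solute carrier family gene, a CCGG CpG (chr10:52951182) differed by 40.3 points (SE 6.16). Its F strand was at 75 to 100% in all embryos with a value, while its R strand spread from 11.5 to 93.8% in Ctrl and from 8 to 90% in EtOH embryos. Median reads on the less methylated and the other strand were 706 and 158 at 3110070M22Rik and 242 and 41 at chr1:30371315. They were 505 and 92 at chr8:20122802, 235 and 79 at chr1:76312087 and 174 and 51 at Gm19951. At Gm13034 they were 76 and 36, and at Jarid2 65.5 and 62.5. The less methylated strand had fewer at chr1:114229992 (52 and 65), Smyd4 (44 and 64.5) and Slc35f1 (48 and 138). The part of unequal strand reads was not tested.

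**Figure D4:**
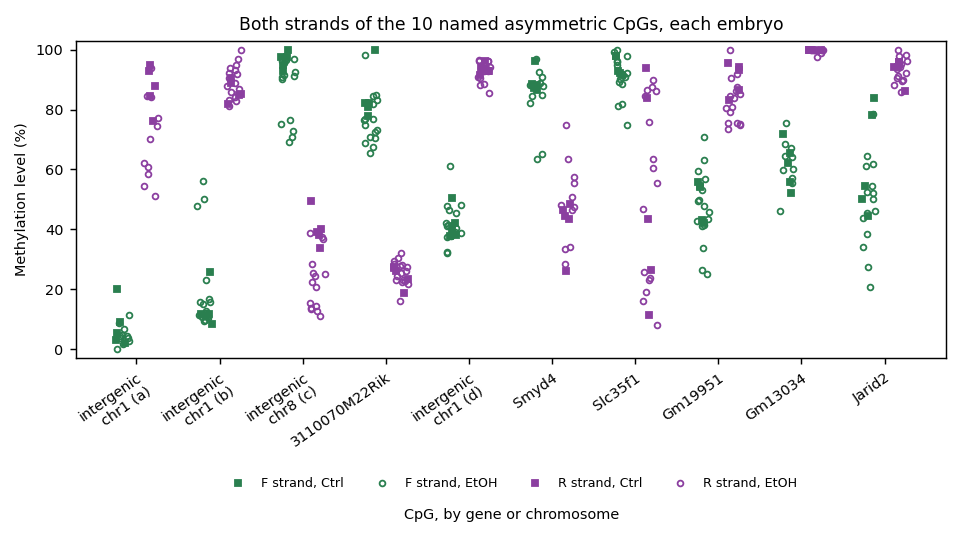
Methylation level (y axis, %) on the F strand (green) and R strand (purple) of the 10 named asymmetric CpGs (x axis), with Ctrl embryos as squares and EtOH embryos as open circles. The intergenic CpGs a, b, c and d are chr1:114229992, chr1:30371315, chr8:20122802 and chr1:76312087. The CpGs were chosen for 1 sign in every embryo, so the strands keep their order. They do so by under 1 point in EtOH embryo 4 at Smyd4 and in EtOH embryos 3 and 8 at Slc35f1.

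Imprinted loci carry methylation on 1 parental allele, which maintenance must copy through every division, and so lie near the middle of the scale. Of 19 imprinted loci searched within 5 kb of a start site, 3 had both-strand CpGs at 30 to 70%, with 50 CpGs in all. Their excess strand SD, which takes a negative sign where the spread fell below that of counting, ran from -11.4 to 14.8 points in Ctrl and from -7.94 to 21.3 in EtOH embryos. It averaged 6.04 points ± 9.42 in Ctrl and 7.67 ± 8.58 in EtOH embryos (exact permutation p = 0.704, adjusted p = 0.821). At Plagl1, a paternally expressed zinc finger gene, 12 CpGs averaged 55.8% ± 8.44 on F and 53.6% ± 5.85 on R in 5 Ctrl embryos, and 44.4% ± 10.8 and 46.0% ± 13.5 in EtOH embryos. At Gnas, which encodes the stimulatory G protein alpha subunit, 16 CpGs averaged 45.7% ± 5.77 on F and 50.4% ± 6.78 on R in Ctrl, and 28.8% ± 13.7 and 32.4% ± 15 in EtOH embryos. Neither locus held a called CpG. With 2.35% of all 7791 tested CpGs called, so few CpGs cannot show that the strands are equal there. At Mcts2, an imprinted retrogene inside H13, 22 CpGs averaged 36.2% ± 3.41 on F and 45.7% ± 12.5 on R in Ctrl, and 29.6% ± 15.6 and 36.7% ± 20.9 in EtOH embryos. Of 67 CpGs tested near imprinted start sites, 8 were called, beside 2.35% of all tested CpGs. These 8, all at Mcts2 on 1 fragment of 122 bp in the promoter (chr2:152687059-152687141), were higher on R, by 13.8 to 15.9 points (SE 3.39 to 3.74, limma adjusted p 0.00579 to 0.0167). Their mean difference was -16.8 points ± 12.2 in 5 Ctrl embryos (range -32.6 to 0.804, median -18.0) and -13.1 ± 18.8 in 11 EtOH embryos (range -49.7 to 5.25, median -2.37), so the strand order there was not kept in every embryo.

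One CpG was taken at each imprinted locus by its number of embryos and depth. At Plagl1 (chr10:13090893) the strand difference was 1.45 points (SE 2.23, limma adjusted p = 0.776), at Mcts2 (chr2:152686970) -3.57 points (SE 2.11, adjusted p = 0.351) and at Gnas (chr2:174327859, 91 bp from a Gnas start site) -9.97 points (SE 2.47, adjusted p = 0.00797), under the 10 points needed for a call. With 1 embryo left out the Plagl1 value ran from 0.374 to 1.93 points and the Mcts2 value from -4.82 to -1.15, both nearest 0 without Ctrl embryo 1. The Gnas value ran from -11.8 to -9.17, and reached the 10 points of a call when the embryo left out was Ctrl embryo 5 or EtOH embryo 4, 5, 6, 7, 8, 10, 11 or 16.

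The strand difference was last compared between exposure groups at each CpG. None of the 7791 CpGs (0%) passed an adjusted p of 0.05 with at least 10 points in limma. At an unadjusted p of 0.05 there were 392 (5.03%). With the reads pooled within each condition, a test that treats reads as replicates called 78. Without EtOH embryo 13, limma called 1, the Zfpm1 CpG described next (-17.1 points, adjusted p = 0.0307). The median size of EtOH minus Ctrl in the strand difference was 2.49 points.

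The 5 CpGs with the smallest p are given as values. In a coding exon of Zfpm1, which encodes the GATA cofactor FOG1, the CpG printed above (chr8:122335861) had 16.5, 24.6, 25.7, 22.7 and 23.6% on F in Ctrl embryos 1 to 5 and 7.08, 10.9, 0, 14.3 and 8.82% on R. EtOH embryos had 3.23 to 20% on F and 6.47 to 22.5% on R. F minus R was 14.4 points ± 6.88 in Ctrl and -2.05 ± 5.10 in 16 EtOH embryos, a difference of -16.5 points (SE 3.16, limma adjusted p = 0.0791). In a coding exon of Kbtbd11, a BTB and kelch domain gene, the CpG at chr8:15029140 had F minus R at -11 points ± 7 in Ctrl and 4.18 ± 4.69 in EtOH embryos (15.1 points, SE 3.09, limma adjusted p = 0.102). There the R strand was at 24.7 to 39.1% in Ctrl and 10.9 to 26.4% in EtOH embryos, and F at 19.8 to 23.1% and 14.6 to 33.9%.

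The other CpGs of the 5 were intergenic. The CCGG CpG at chr7:16771917 differed by 18.9 points (SE 4.50), with F at 48.4 and 59.4% in Ctrl embryos 2 and 1 and at 80.8 to 88.8% in Ctrl embryos 3, 4 and 5, against 75 to 97.1% in EtOH embryos. Over the 9 CpGs of its fragment, all called asymmetric, F minus R was -61.3 and -51.9 points in Ctrl embryos 2 and 1, -46.4 and -37.0 in EtOH embryos 1 and 3, and -19.6 to 0.532 in all others, so low F levels occurred in both groups. The CpG at chr5:17103109, in a repeat, differed by -24.6 points (SE 5.83), with F at 95.5 to 100% in Ctrl and 58 to 100% in EtOH embryos. The CpG at chr17:39845958 differed by -20.9 points (SE 5.14), and limma's adjusted p was 0.388 at all 3. It lies 396 bp before Rn18s-rs5, an 18S ribosomal RNA related sequence. Its R strand was at 8.28 to 16.9% in Ctrl and 6.90 to 54.7% in EtOH embryos, while F stayed at 6.63 to 10.8% and 2.25 to 16.1%. Within the 13 libraries inside the Ctrl range of residual levels, which are not matched in them, this CpG passed the test (-26.2 points, limma adjusted p = 6.8e-04). So did 3 more CpGs, 393 to 1540 bp before Rn18s-rs5, by -18.3 to -28.8 points, and 1 CpG each on chromosomes 15 and 17 elsewhere. These are all 6 calls of that fit (0.077% of 7791), and they are named after their values were seen. Near Rn18s-rs5 the 4 called CpGs were among 244 tested. Over all embryos the estimates of those 244 ran from -20.9 to 15.2 points with a median of -0.908, and 84 were above 0. Ribosomal sequence is present in many copies, and the median over embryos reached 45895 reads on the R strand at a CpG 3328 bp before Rn18s-rs5.

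**Figure D5:**
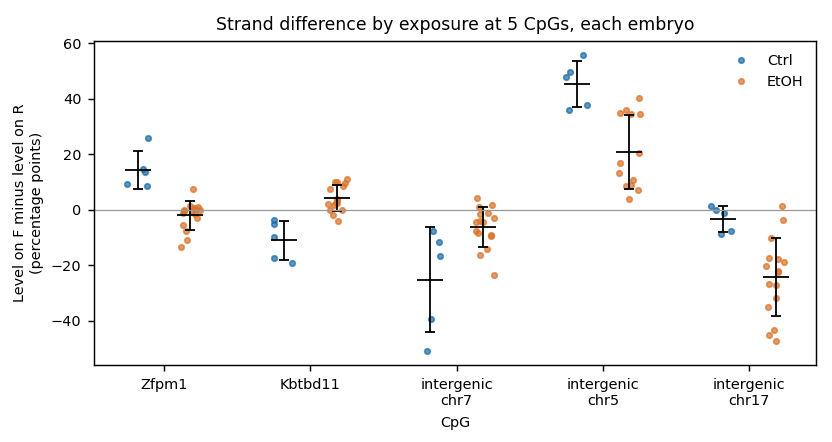
Level on F minus level on R (y axis, percentage points) at the 5 CpGs with the smallest p for a strand difference by exposure (x axis), for each Ctrl (blue) and EtOH (orange) embryo, with the mean and SD. The Zfpm1 means are 14.4 points in Ctrl and -2.05 in EtOH embryos; no CpG passed the adjusted threshold over all 22 embryos.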

How the data were processed

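Bisulfite libraries of 6 Ctrl and 16 EtOH forebrains were analysed from the per-cytosine calls that the authors deposited. The submitters' processing notes name Trim Galore 0.3.3, BSMAP 2.90 (an aligner for bisulfite reads) and the build mm10. For every cytosine the authors deposited coverage as read counts, and the percent of C and of T among them. Methylated reads were computed as coverage times percent C, rounded. Only C and T were counted, so a C changed to T in the DNA itself cannot be told apart from an unmethylated C. PCR copies carry no molecular identifiers, so counting error is a lower bound.

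All 2809601 autosomal CpGs matched CG in GRCm38 (RefSeq), which also gave annotation and sequences. The CpGs, gene lists and tests were chosen with earlier results of these data known. Total calls per library ran from 68126469 to 216223892. Per-embryo means were compared by two-sided exact permutation tests with Benjamini-Hochberg adjustment (7 level classes; 10 other measures). Strand differences per CpG were tested with limma 3.58.1 (variance trend on counting variance, R 4.3.3), mean level 5 to 95%, embryos as replicates. The scripts were tested on simulated data. Named were up to 10 called CpGs with the largest difference of 1 sign in every embryo, the 5 with the smallest p by exposure, and 1 at each imprinted locus, all at least 1000 bp apart except the imprinted ones and none on chromosome 18. Alternatives were read minimums of 10 and 40, CpGs in all 22 embryos, 20 to 40 reads only, leaving out CCGG CpGs, repeats or the deepest 1%, classes from all embryos, leaving out each embryo, the 13 libraries inside the Ctrl range of residual levels (no gap over 1.3-fold between neighbours), the replicate block, and tests on reads. Chosen after seeing the data were leaving out EtOH embryos 4, 5 and 6 or Ctrl embryo 6, and windows that occur once.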

Additional observations from a re-analysis of the deposited data

Results flagged for a closer look

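In 30 sets of Ctrl values examined, 2 had an embryo that stood apart from the others by Dixon's test; chance flags about 1 set in 20. The strand difference of the 3110070M22Rik CpG (chr13:119488435) was 81.2 points in Ctrl embryo 1 and 51.9 to 57.3 in the other Ctrl embryos. At the Plagl1 CpG (chr10:13090893) it was 12.4 points in Ctrl embryo 1 and -0.0704 to 2.85 in the others.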

How the results depend on the processing

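None of the per-embryo comparisons passed an adjusted p of 0.05 under any alternative run (smallest 0.0619), and 25 of 574 values changed direction, as follows, with the Plagl1 CpG's at the end. For EtOH minus Ctrl, the 5′ minus 3′ strand at CCGG became -0.776 points with 10 reads, -0.570 outside repeats, -0.0177 with classes from all embryos and -0.142 within the 13 libraries inside the Ctrl range of residual levels (-0.122 to 0.799 with 1 embryo left out, below 0 without Ctrl 2, EtOH 1 or EtOH 12). With 40 reads the excess at 80 to 95% became -0.145 and the shared strand SD 1.01 points. In CpGs of all 22 embryos the excess at 95% and over became -0.0116, the excess strand SD -0.538, F minus R -1.82 and the nearer-end strand 0.987. With 20 to 40 reads only, the shared strand SD became 4.07 and the level 1.997 on F and 0.572 on R. The nearer-end strand became 0.29 within those libraries and 0.0259 without EtOH embryos 4, 5 and 6, and ran from -0.273 to 0.0735 with 1 embryo left out, above 0 without Ctrl 2. Without EtOH embryos 4, 5 and 6 the excess under 5% became -0.0105. The excess at 20 to 40% ran from -0.0611 to 0.484 with 1 embryo left out, below 0 without Ctrl 3, 4 or 6, and the imprinted excess strand SD from -1.87 to 3.37, below 0 without Ctrl 6. The Plagl1 CpG's strand difference became -0.313 within those libraries and -0.23 without EtOH embryos 4, 5 and 6. The causes were not tested.

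Asymmetric CpGs numbered 183 and became 564 with 10 reads (27621 tested), 69 with 40 reads, 22 in CpGs of all 22 embryos, 2 with 20 to 40 reads, 107 without the deepest 1% and 57 at 20 points; fewer CpGs were tested in all of these but the first and last. They ran from 173 to 194 with 1 embryo left out, were 126 with windows that occur once, and 190 by a Cochran-Mantel-Haenszel test of the reads, which held all 183. CpGs that differed with exposure numbered 0 and became 1 without EtOH embryo 13 (the Zfpm1 CpG, -17.1 points, limma adjusted p = 0.0307), 6 within the 13 libraries and 78 with pooled reads, and stayed at 0 with any other embryo left out.

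The replicate numbers 1 to 6 are shared by both groups, and the labels do not say what they mark. Same-numbered embryos correlated from -0.0966 to 0.268 in level and from -0.00493 to 0.112 in strand difference. In these measures 2 and 1 of 6 Ctrl embryos correlated best with their own number. With the replicate block 146 CpGs were asymmetric and 0 differed with exposure, against 141 and 0 in the same 12 embryos without it, and the excess at 20 to 40% became -0.165 points.

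Depth limits single CpGs: at 20 to 80% counting alone gave 6.90 points of absolute strand difference in Ctrl and 5.74 in EtOH embryos.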
